A study of Mus musculus with 6 samples.

Results

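The bins nearest the centromeres were taken from the list of genomic bins of about 100 kb that serves all 6 in situ Hi-C libraries. They are the bins that start between 3.1 and 13 Mb of each of the 19 mouse autosomes, whose centromeres lie at the low end of the sequence. There are 1873 of them among 24067 autosomal bins, with 98 or 99 on each chromosome. The cells were B-cell progenitors of the C57BL/6 background: lineage negative bone marrow that had grown for 8 days with IL7, FL and SCF on a layer of OP9 stroma, from which B220-positive cells were taken. Erg KO cells (Rag1CreT/+;Erg fl/fl, 1 female and 1 male library) had lost the transcription factor Erg through a Rag1Cre transgene, which deletes floxed alleles in lymphoid progenitors. The CreT control (Rag1CreT/+, 2 female libraries) carried the transgene alone, and the Erg fl/fl control (Rag1Cre+/+;Erg fl/fl, 1 female and 1 male library) carried the floxed alleles alone. In the study's terms Erg KO cells are at the pre-proB stage and controls at the proB stage, so loss of Erg and stage of development cannot be told apart here. Hi-C holds no RNA, so the labelled cell type could not be checked against marker genes, and a bin of 100 kb is too wide to show the deletion in Erg itself.

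Mouse chromosomes have their centromere at one end, next to long arrays of satellite repeats. In many cell types the satellite arrays of several chromosomes gather into clusters called chromocentres, which often lie beside the nucleolus or at the nuclear envelope. The nucleolus forms around the arrays of ribosomal RNA genes (rDNA), and in C57BL/6 mice these arrays lie just beyond the centromeres of chromosomes 12, 15, 16, 18 and 19. Neither the satellite nor the rDNA arrays are in the reference sequence, so the bins described here lie close to the start of the sequence beyond them. Contacts between bins of different chromosomes are called trans contacts, and those within a chromosome cis contacts.

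The bins are made of whole restriction fragments, and neighbours share the 4 bases of the cut site. Mapped sequence begins at base 3000001 on chromosomes 12, 16 and 19 and at base 3050001 on chromosomes 2 and 15, before the first centromere-near bin. For these chromosomes, 60 bases around the start of that bin are given. Chromosome 2 carries no rDNA, and the other 4 do. The bases are the plus strand of GRCm38, the assembly that mm10 names, with the cut site at the start of the bin in capitals. The site GATC was found at the start of 1873 of 1873 of these bins.
Chromosome 2, chr2:3200354-3200413: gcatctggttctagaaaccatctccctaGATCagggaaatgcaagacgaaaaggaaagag
Chromosome 12, chr12:3100543-3100602: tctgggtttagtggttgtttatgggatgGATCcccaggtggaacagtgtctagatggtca
Chromosome 15, chr15:3100066-3100125: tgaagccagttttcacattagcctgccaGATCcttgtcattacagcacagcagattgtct
Chromosome 16, chr16:3100140-3100199: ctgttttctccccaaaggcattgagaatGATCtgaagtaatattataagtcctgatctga
Chromosome 19, chr19:3200129-3200188: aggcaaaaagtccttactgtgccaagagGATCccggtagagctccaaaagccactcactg

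A filter on total contacts (0.3 to 3 times the autosomal median) kept 1783 of the 1873 centromere-near bins (95.2%) and 23644 of all 24067 (98.2%). Of the 90 lost, 89 were too low and 1 too high, and chromosomes 14 (55 of 98 kept) and 7 (68 of 99 kept) lost the most. The centromere-near bins held more sequence marked as repeats (37.0%) than autosomal bins between the chromosome ends (33.2%), at nearly the same GC content (41.5% and 41.8%). They hold the starts of 1473 protein-coding genes, of which 331 lie on chromosome 19 and 28 on chromosome 3. A compartment score was taken from the cis contacts of all libraries together, with positive values for the gene-rich, open side. It was positive in 38.6% of centromere-near bins and in 45.4% of other bins, from 6.06% on chromosome 9 to 78.4% on chromosome 19. Its sign was set by gene density. Before that step the correlation with gene density was weakest on chromosomes 13 (-0.291), 18 (-0.353) and 2 (-0.399), and it reached 0.722 on chromosome 5. The sides are thus least certain on chromosomes 13, 18 and 2.

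Libraries held between 29014581 and 68085468 read pairs. The 2 Erg KO libraries differed from all 4 controls in the share of autosomal read pairs that joined different chromosomes. This trans share was 32.3% and 34.6% in the Erg KO libraries, 24.7% and 26.8% in the CreT control and 24.3% and 21.6% in the Erg fl/fl control. Trans contacts are therefore given as observed over expected, where the expected count of a bin pair is the product of 2 fitted bin weights, chosen so that each bin keeps its trans total in that library.

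Bins near the centromeres of different chromosomes met each other more often than their coverage predicts in all 6 libraries, and less so in Erg KO cells. Observed over expected was 1.33 in both Erg KO libraries, against 1.51 in both CreT control libraries and 1.54 and 1.69 in the Erg fl/fl libraries. The groups did not overlap. The mean was 1.33 ± 0.00239 in Erg KO cells (SD, n = 2) and 1.56 ± 0.0875 in controls (n = 4), a log2 difference of -0.23. The two-sided exact permutation p was 0.0667, the smallest that the 15 splits of 2 against 4 libraries allow. Over all 6 libraries the excess was higher than 0 on the log2 scale in 6 of 6 (mean 0.57), with an exact sign-flip p of 0.03125, which is again the smallest possible.

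These ratios rest on 72918 to 177976 read pairs per library. The Erg fl/fl replicate 2 library was lowest in depth and in trans share and highest in observed over expected, and without it the log2 difference was -0.19. The part of the trans share in the difference was not tested. Counted per 1000000 autosomal read pairs and 10000 bin pairs, with no expectation, the direction turned. The rate was 19.5 and 20.1 read pairs in Erg KO cells, 17.2 and 18.4 in the CreT control and 16.9 and 17.2 in the Erg fl/fl control. Read pairs beyond expectation numbered 1072 and 1152 per 1000000 cis read pairs in Erg KO cells, against 1166 and 1273 in the CreT control and 1182 and 1353 in the Erg fl/fl control. On that scale the Erg KO libraries again lay below all controls, with a log2 difference of -0.16 (exact permutation p = 0.133).

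**Figure D1:**
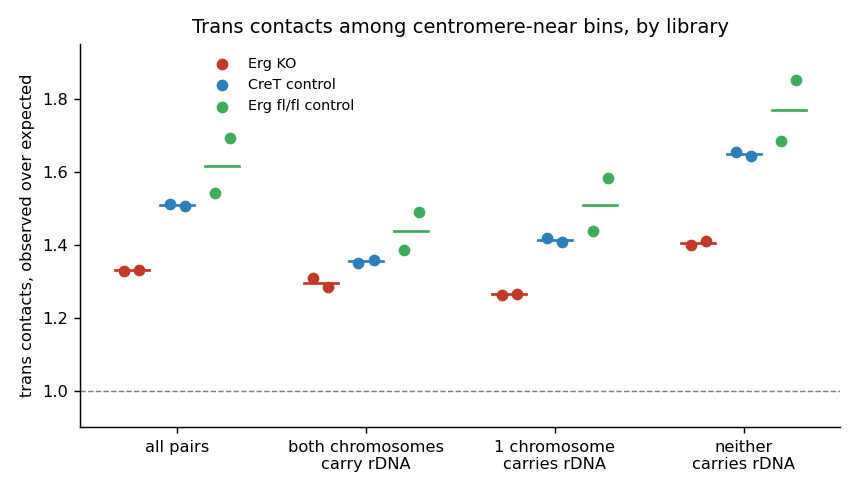
Observed over expected trans contacts among centromere-near bins (y axis, no unit, dashed line at 1) in each library, for all chromosome pairs and for pairs by how many of the chromosomes carry rDNA. Points are libraries and short lines group means. The Erg KO libraries lie below all control libraries in each class, with the smallest gap where both chromosomes carry rDNA (1.28 and 1.31 in Erg KO, 1.35 to 1.49 in controls).

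The rDNA class of the chromosomes was examined next, since the nucleolus forms around these arrays. Of the 171 chromosome pairs, 10 join a pair of rDNA chromosomes, 70 join an rDNA chromosome with another and 91 join chromosomes without rDNA. Relative to their coverage, pairs of rDNA chromosomes met less often than pairs without rDNA. Their observed over expected was 1.31 and 1.28 in Erg KO libraries, 1.35 and 1.36 in the CreT control and 1.39 and 1.49 in the Erg fl/fl control. Pairs without rDNA reached 1.40 and 1.41 in Erg KO libraries, 1.65 and 1.64 in the CreT control and 1.68 and 1.85 in the Erg fl/fl control. Contact of rDNA pairs over that of pairs without rDNA averaged 0.852 and was under 1 in 6 of 6 libraries (exact sign-flip p = 0.03125), and it stayed under 1 against shorter autosomes without rDNA alone (0.858).

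That lower level rested on chromosome 19 and on the expectation. On counts per 1000000 autosomal read pairs, with no expectation, the direction turned, and the mean log2 ratio of rDNA pairs to pairs without rDNA was 0.51 (exact sign-flip p = 0.03125). Without chromosome 19 the mean log2 ratio was -0.07 in place of -0.23 (exact sign-flip p = 0.125), and it was 0.05 (p = 0.344 by the same exact test) when expected counts came from all contacts of a bin and not from its trans contacts. With the compartment score of both bins in the expectation and chromosome 19 left out, it was 0.0045. Chromosome 19 is the shortest autosome, and its centromere-near bins have the highest share on the open side.

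Between genotypes, all 3 classes were lower in Erg KO cells. The log2 difference was -0.11 for rDNA pairs (1.30 ± 0.0177 in Erg KO cells and 1.40 ± 0.0639 in controls, SD, n = 2 and 4, exact permutation p = 0.133). It was -0.21 for mixed pairs (1.26 ± 0.00217 in Erg KO cells and 1.46 ± 0.0816 in controls, exact permutation p = 0.0667) and -0.28 for pairs without rDNA (1.41 ± 0.00759 in Erg KO cells and 1.71 ± 0.0975 in controls, exact permutation p = 0.0667). The ratio of rDNA pairs to pairs without rDNA was thus nearer to 1 in Erg KO cells, at 0.935 and 0.91, against 0.817 and 0.827 in the CreT control and 0.822 and 0.804 in the Erg fl/fl control. On the log2 scale this ratio differed by 0.17, with no overlap of the groups (exact permutation p = 0.0667), and 0.12 without chromosome 19. For rDNA pairs the direction turned on both count scales, with a log2 difference of 0.24 per 1000000 autosomal read pairs and 0.12 for read pairs beyond expectation per 1000000 cis read pairs.

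Within the first 10 Mb, contact was densest in the step nearest the start of the sequenced arm. For chromosome pairs without rDNA, the bins that start from 3.1 to 4 Mb reached 1.55 and 1.56 in Erg KO libraries and 1.83 to 2.22 in controls. In the last step, from 12 to 13 Mb, these pairs had 1.32 and 1.36 in Erg KO libraries and 1.58 to 1.75 in controls. Pairs of rDNA chromosomes had a different course, with 1.46 and 1.54 in Erg KO libraries and 1.66 to 2.02 in controls in the first step. They were lowest from 6 to 7 Mb (1.16 and 1.19 in Erg KO libraries, 1.17 to 1.34 in controls) and higher again from 12 to 13 Mb (1.38 and 1.43 in Erg KO libraries, 1.44 to 1.53 in controls). Erg KO libraries lay below all controls in 10 of 10 steps for mixed pairs and for pairs without rDNA, whereas for rDNA pairs they overlapped the controls in the steps that start at 6, 8 and 10 Mb.

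**Figure D2:**
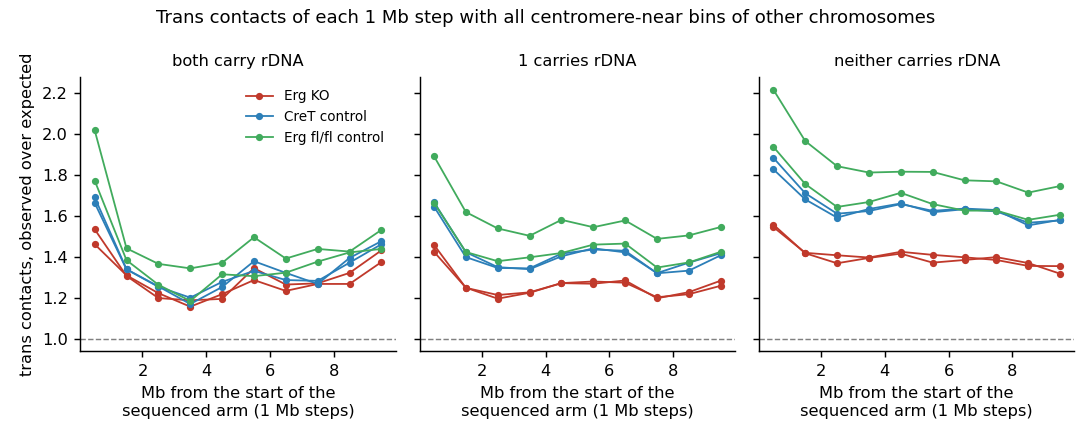
Observed over expected trans contacts (y axis, no unit) of each 1 Mb step of the first 10 Mb of the sequenced arm (x axis, Mb from its start) with all centromere-near bins of the other chromosomes, 1 line per library, in panels by class of chromosome pair. The first step is highest in every line. Erg KO lines lie below all control lines at each step where a chromosome without rDNA takes part. For pairs of rDNA chromosomes they do so at most steps and overlap the controls at the rest.

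Trans contact among like parts of chromosomes declined along the arm. It averaged 1.49 among centromere-near bins over all libraries, 1.36 among bins of 13 to 23 Mb, 1.14 for 23 to 33 Mb, 1.11 for 33 to 43 Mb and 1.06 for 43 to 53 Mb, and was 1.33 among the last 10 Mb of the chromosomes. Centromere-near bins were higher than each of these 5 windows in 6 of 6 libraries (exact sign-flip p = 0.03125 each). Centromere-near bins and the last 10 Mb of other chromosomes met less often than expected. That value was 0.797 and 0.794 in Erg KO libraries, 0.684 and 0.688 in the CreT control and 0.680 and 0.592 in the Erg fl/fl control. Excess and deficit were thus both closer to 1 in Erg KO libraries. The lower excess in Erg KO cells was not confined to the centromere side, since the log2 difference was -0.16 for 13 to 23 Mb, -0.19 for the last 10 Mb and between -0.08 and -0.04 for the windows from 23 to 53 Mb (exact permutation p = 0.0667 each).

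The ratio of rDNA pairs to pairs without rDNA differed between windows. It averaged 1.04 for 13 to 23 Mb and 1.14 for 23 to 33 Mb, 1.135 for 33 to 43 Mb and 1.14 for 43 to 53 Mb, and it was lower among centromere-near bins in 6 of 6 libraries in each of these 4 comparisons (exact sign-flip p = 0.03125). In the last 10 Mb the ratio was 0.734, and there the centromere-near ratio was higher in 6 of 6 libraries.

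Chromosomes differed in how much their centromere-near bins took part. By the mean over all libraries chromosome 7 was highest, with 1.40 in both Erg KO libraries, 1.62 in both CreT control libraries and 1.66 and 1.85 in the Erg fl/fl libraries, over the 68 of its 99 bins that were kept. Chromosomes 11, 5, 6, 13 and 17 followed, with means over all libraries between 1.57 and 1.59, and neighbours in this order differed by less than the spread between libraries. Chromosome 19 was lowest in every library, with 1.07 and 1.05 in Erg KO libraries, 1.10 and 1.06 in the CreT control and 1.13 and 1.25 in the Erg fl/fl control, and chromosome 16 was next, with a mean of 1.34. The other rDNA chromosomes stood among the rest, with means of 1.56 for chromosome 18, 1.54 for chromosome 15 and 1.53 for chromosome 12, and in both Erg KO libraries chromosome 15 was the highest of all. Erg KO libraries were below all controls on 18 of 19 chromosomes, with log2 differences between -0.30 on chromosome 13 and -0.16 on chromosome 15. Chromosome 19 was the exception, at -0.10 (exact permutation p = 0.267).

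**Figure D3:**
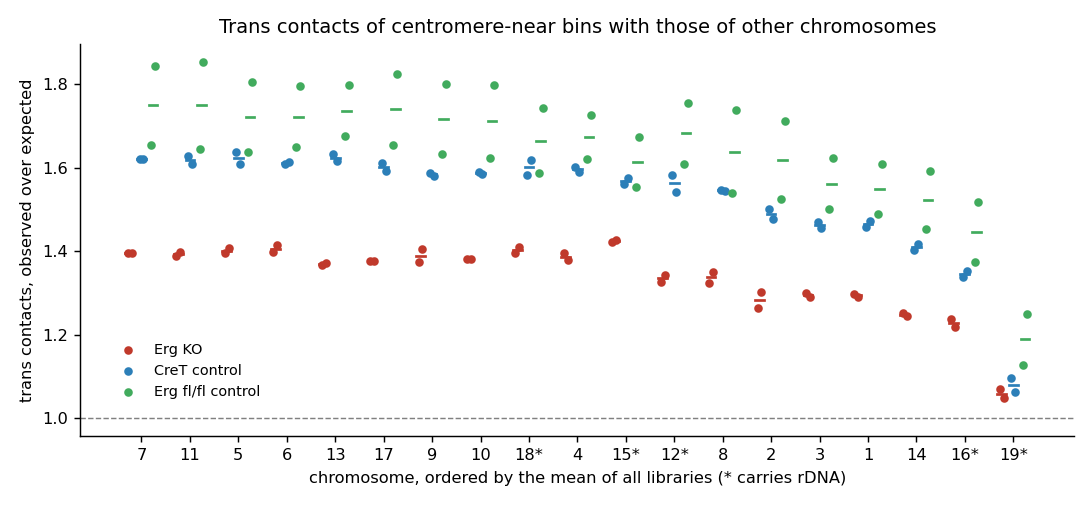
Observed over expected trans contacts (y axis, no unit, dashed line at 1) of the centromere-near bins of each chromosome (x axis, ordered by the mean over all libraries, rDNA chromosomes starred) with those of the other chromosomes. Points are libraries and short lines group means. Erg KO libraries lie below all control libraries on every chromosome except chromosome 19, which is also the lowest in level.

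Means over all libraries ran from 0.735 to 1.90 over the 171 single pairs. The highest was that of chromosomes 3 and 9, with 1.67 and 1.57 in Erg KO libraries, 1.99 and 1.94 in the CreT control and 1.98 and 2.23 in the Erg fl/fl control. Chromosomes 6 and 9, 5 and 6, 5 and 9, and 9 and 13 came next, with means from 1.88 to 1.89, and the ranges of these pairs over libraries overlapped. The lowest pair was chromosomes 9 and 19, with 0.725 and 0.748 in Erg KO libraries, 0.688 and 0.681 in the CreT control and 0.760 and 0.807 in the Erg fl/fl control. Chromosome 9 has the lowest and chromosome 19 the highest share of open-side bins among the centromere-near parts. All 91 pairs without rDNA were above 1 in every library, as were 62 of 70 mixed pairs and 9 of 10 rDNA pairs, and 18 of the 20 highest pairs were without rDNA.

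Contacts followed compartments as well as position. Among centromere-near bins of different chromosomes, pairs of closed-side bins had 1.65 and 1.69 in Erg KO libraries, 2.00 and 2.03 in the CreT control and 1.99 and 2.14 in the Erg fl/fl control. Pairs of open-side bins had 1.59 and 1.61 in Erg KO libraries and 1.81 to 2.01 in controls. Pairs of an open-side and a closed-side bin, which are depleted elsewhere (0.772 and 0.780 in Erg KO libraries and 0.708 to 0.741 in controls outside the centromere-near parts), were still at 1.03 and 1.01 in Erg KO libraries and 1.09 to 1.31 in controls. With the compartment score of both bins in the expectation, the log2 difference between genotypes was -0.22.

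A model across all parts of the genome was then fitted to test single contacts. The autosomes were cut into 242 blocks of about 10 Mb, of which 19 are the centromere-near parts, and the read pairs of all 27648 block pairs on different chromosomes were compared with the quasi-likelihood test of edgeR, with the expected counts as offsets and group and sex in the model. The centromere-near pairs held between 104 and 2484 read pairs per library. Of the 171 pairs of centromere-near blocks, 154 fell in Erg KO cells and 0 rose at an adjusted p under 0.05. Over all block pairs, 11.9% fell and 16% rose. The median log2 fold change of the 171 pairs was -0.27, against 0.01 for all pairs, and 167 of them were negative. Between the 2 controls edgeR called 0 of the 171 and 0.134% of all pairs. At an unadjusted p under 0.05 there were 24 of the 171 and 1965 of all 27648. In this comparison 143 of the 171 were lower in the CreT control, with a median log2 fold change of -0.05. Against the CreT control alone 121 fell (7.22% of all pairs), and against the Erg fl/fl control alone 147 (8.87%). These comparisons share the Erg KO libraries. With loess offsets over abundance 57 of the 171 fell and 3 rose, and DESeq2 called 52 of 166 falling. With the first 5 Mb alone as the block, 102 fell and 1 rose. Shares of all block pairs called under these alternatives are not given, so these counts have no background beside them.

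The direction of change differed with the position of the partner on its arm. Centromere-near blocks against the second block of another chromosome fell in 267 of 342 pairs and rose in 1. Against block 3 of the arm 170 fell and 7 rose, against block 4 108 fell and 2 rose, and against block 5 55 fell and 6 rose. Against the last block, 0 fell and 279 of 342 rose, with a median log2 fold change of 0.31. The decrease was shared by other like parts: 117 of 171 pairs of second blocks and 110 of 171 pairs of last blocks also fell. Between blocks that were neither centromere-near nor last, 9.35% fell and 11.6% rose.

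**Figure D4:**
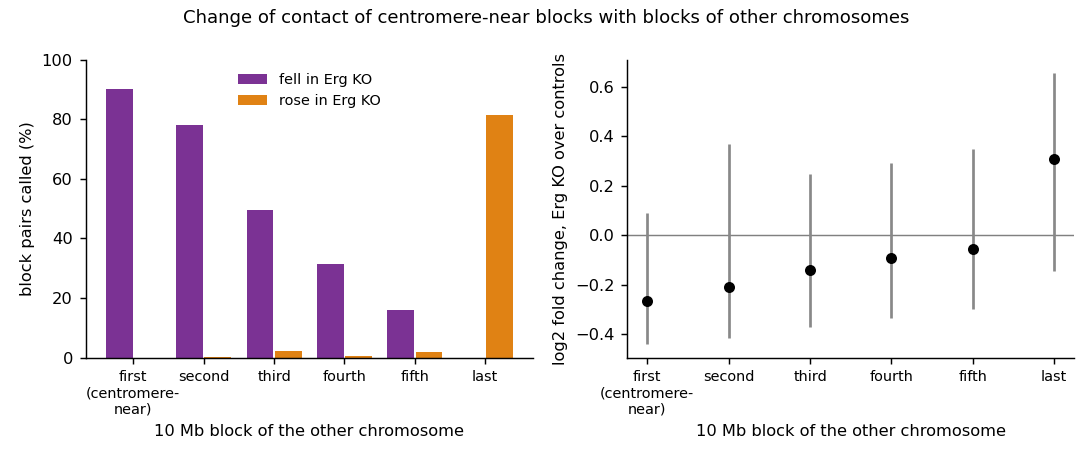
Left, the percentage of pairs of a centromere-near block with a block of another chromosome (x axis, position of that block on its arm) that fell or rose in Erg KO cells at an edgeR adjusted p under 0.05. Right, the median (point) and the range (line) of the change in Erg KO cells on the log2 scale. Calls run from 154 of 171 falling for the first block to 279 of 342 rising for the last.

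All 91 pairs without rDNA fell (median log2 fold change -0.30), as did 59 of 70 mixed pairs (-0.24) and 4 of 10 rDNA pairs (-0.12). Of the 17 pairs that did not pass, 13 involved chromosome 19. The largest decrease was between chromosome 7 (chr7:3100086-13000065) and chromosome 12 (chr12:3100571-13000036). Observed over expected for this pair was 1.30 and 1.46 in Erg KO libraries, 1.77 and 1.63 in the CreT control and 1.69 and 2.14 in the Erg fl/fl control, with no overlap. Its log2 fold change was -0.44 ± 0.06 (SE, edgeR adjusted p = 1.09e-08).

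Chromosomes 2 and 17 had 1.30 and 1.35 in Erg KO libraries, 1.75 and 1.64 in the CreT control and 1.70 and 1.97 in the Erg fl/fl control (log2 fold change -0.44, edgeR adjusted p = 6.3e-11). Chromosomes 11 and 17, 11 and 13, and 12 and 13 completed the 5 largest decreases, with log2 fold changes of -0.42, -0.40 and -0.39. Each kept its sign against either control, and without any single library the 5 lay between -0.56 and -0.35. No centromere-near pair rose, so that none could be named in that direction.

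In edgeR, 4 of the 10 rDNA pairs fell, namely chromosomes 12 and 16 (log2 fold change -0.32, edgeR adjusted p = 1.38e-06), 12 and 18 (-0.26, adjusted p = 6.11e-05), 16 and 18 (-0.17, adjusted p = 0.00441) and 12 and 15 (-0.15, adjusted p = 0.0243). Chromosomes 12 and 16 had 1.16 and 1.23 in Erg KO libraries, 1.38 in both CreT control libraries and 1.35 and 1.66 in the Erg fl/fl control. Most contact among rDNA pairs was that of chromosomes 15 and 18, with 1.61 and 1.65 in Erg KO libraries, 1.73 and 1.80 in the CreT control and 1.64 and 1.76 in the Erg fl/fl control, and it did not pass (-0.10, adjusted p = 0.121). Chromosomes 15 and 16 narrowly missed the threshold (-0.12, adjusted p = 0.0503). The 4 pairs of chromosome 19 with another rDNA chromosome had log2 fold changes from -0.11 to 0.09, with adjusted p from 0.0635 to 0.537. Chromosomes 15 and 19 were the 1 rDNA pair with a positive value, at 1.39 and 1.29 in Erg KO libraries, 1.26 and 1.24 in the CreT control and 1.34 and 1.29 in the Erg fl/fl control, where the groups overlapped.

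Bins were next tested one at a time, by the read pairs that each of the 23644 kept bins shared with the centromere-near parts of other chromosomes. Of the 1783 centromere-near bins, 500 fell and 0 rose in edgeR, while 4.05% of all bins fell and 4.27% rose. The median log2 fold change was -0.24, and 1727 of 1783 values were negative. Both Erg KO libraries lay below all controls in 1094 of the 1783, against 15.2% of all bins. Of the 1839 bins in the last 10 Mb, 2 fell and 422 rose. Falling bins were most frequent in the step from 3.1 to 4 Mb, with 83 of 154, and least frequent from 10 to 11 Mb, with 31 of 188. They made up 46 of 96 bins on chromosome 17, 45 of 98 on chromosome 11 and 10 of 97 on chromosome 19.

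This count rested on few libraries. Without 1 of the Erg KO libraries 46 or 47 bins fell, and without Erg fl/fl control replicate 2 44 did, while without 1 of the CreT control libraries 240 or 260 did. DESeq2 called 1 (287 at an unadjusted p under 0.05) and loess offsets left 13 falling and 2 rising. Shares of all bins under these alternatives are not given. The median log2 fold change stayed between -0.33 and -0.20 without any single library.

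The largest decrease was at chr12:9000021-9100126, which holds the start of Ttc32. Its observed over expected was 1.03 and 0.977 in Erg KO libraries, 1.54 and 1.56 in the CreT control and 1.54 and 1.76 in the Erg fl/fl control, with no overlap (log2 fold change -0.68 ± 0.11, SE, edgeR adjusted p = 3.47e-05). Second was the first centromere-near bin of the same chromosome, chr12:3100571-3200177, whose edge is printed above and which holds no protein-coding start. It had 1.25 and 1.41 in Erg KO libraries, 1.86 and 1.88 in the CreT control and 1.87 and 2.26 in the Erg fl/fl control (log2 fold change -0.61, edgeR adjusted p = 5.18e-08). With centromere-near parts of other chromosomes this bin shared 489 to 1168 read pairs per library, against 77 to 198 for the Ttc32 bin. Its local contacts with nearby bins of its own chromosome were fewer. They ran from 16.7 to 22.7 on the scale given below, against 53.3 to 60.4 for the Ttc32 bin. Mapped sequence begins at base 3000001, so the bin at chr12:3100571-3200177 has local partners on 1 side only. The Ttc32 bin has them on both sides. Any further cause of this contrast between the bins was not tested.

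Next was chr6:5300052-5400388 with Asb4, which encodes an ankyrin repeat protein of ubiquitin ligases. That bin had 1.38 and 1.26 in Erg KO libraries, 1.88 and 1.84 in the CreT control and 1.86 and 2.43 in the Erg fl/fl control (log2 fold change -0.60, edgeR adjusted p = 2.27e-05). A further 7 bins among the 10 largest decreases were on chromosomes 9, 12, 6, 3, 7, 2 and 1, with log2 fold changes from -0.59 to -0.54. Their genes were Tpd52, Vmn1r67, a vomeronasal receptor gene, and Zik1, a zinc finger gene, and 5 of the 7 held no protein-coding start.

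Of 177 genes in 8 lists of B-lineage, signalling, repair, T-lineage, progenitor, stromal and nucleolar genes, 22 start in a centromere-near bin. Their bins lost contact with other centromere-near parts in 4 of 22 cases (18.2%) and gained it in 0, beside 28.04% of all centromere-near bins and 4.05% of all bins that lost it. The strongest was the bin of Polm, a DNA polymerase that fills gaps in end joining. It had 1.14 and 1.22 in Erg KO libraries, 1.38 and 1.35 in the CreT control and 1.59 in both Erg fl/fl libraries (log2 fold change -0.33, edgeR adjusted p = 0.0162). The bins of Insr, the insulin receptor gene (-0.26, adjusted p = 0.041), Osmr, a receptor subunit for oncostatin M (-0.32, adjusted p = 0.0434), and Itga8, an integrin chain gene of stromal cells (-0.31, adjusted p = 0.0426), also passed. For Osmr the groups overlapped, with 1.08 and 1.33 in Erg KO libraries and 1.29 to 1.59 in controls. The bin of Ikzf1, a zinc finger factor needed for lymphoid development, had 1.46 in both Erg KO libraries, 1.64 and 1.79 in the CreT control and 1.83 and 1.72 in the Erg fl/fl control. That is a log2 fold change of -0.25, which did not pass (adjusted p = 0.078). The bin of Il7r, which encodes the IL7 receptor chain, had -0.14 (adjusted p = 0.412), and that of Il2ra, the gene of the IL2 receptor alpha chain, 0.02 (adjusted p = 0.936).

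Along their own arm, centromere-near bins of the 2 chromosome classes differed in short contacts. The expected cis count was the average for that distance over the whole chromosome. Under 0.5 Mb, rDNA chromosomes had 1.07 and 1.10 in Erg KO libraries, 1.15 in both CreT control libraries and 1.13 and 1.175 in the Erg fl/fl control. On chromosomes without rDNA it was 0.909 and 0.888 in Erg KO libraries, 0.851 and 0.847 in the CreT control and 0.856 and 0.827 in the Erg fl/fl control. All 6 libraries were thus above the average on rDNA chromosomes and under it on the others. From 2 to 10 Mb both classes were above the average in 6 of 6 libraries.

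Between genotypes these classes went apart at short range. Under 0.5 Mb the log2 difference was -0.09 on rDNA chromosomes and 0.09 on the others, and from 0.5 to 2 Mb it was -0.13 on rDNA chromosomes and 0.08 on the others, with no overlap of the groups in any of the 4 (exact permutation p = 0.0667 each, the smallest possible). From 0.5 to 2 Mb, rDNA chromosomes had 0.988 and 1.00 in Erg KO libraries, 1.08 and 1.07 in the CreT control and 1.07 and 1.13 in the Erg fl/fl control. From 2 to 10 Mb the difference was -0.11 on rDNA chromosomes, with no overlap, and -0.02 on the others, where the groups overlapped. The ratio of the classes itself differed by -0.18 under 0.5 Mb, -0.21 from 0.5 to 2 Mb and -0.09 from 2 to 10 Mb on the log2 scale (exact permutation p = 0.0667 each).

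This contrast was in part that of chromosome 19, without which the differences on rDNA chromosomes were -0.04 under 0.5 Mb and -0.07 from 0.5 to 2 Mb. It also rested on the expectation. With the coverage of each bin in the expectation, the direction on rDNA chromosomes turned, to 0.10 under 0.5 Mb and 0.03 from 0.5 to 2 Mb, and so did that of the ratio of the classes (0.09 and 0.05). Over both classes together the log2 difference was 0.03 under 0.5 Mb, 0.02 from 0.5 to 2 Mb and -0.05 from 2 to 10 Mb, values that pool the 2 classes.

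Contact with bins of 13 to 23 Mb averaged 1.02 in Erg KO cells and 1.02 in controls over all chromosomes (log2 difference -0.00493), and its sign turned if either male library was left out. Here too the classes differed. On rDNA chromosomes it was 0.890 and 0.916 in Erg KO libraries, 0.971 and 0.944 in the CreT control and 0.963 and 1.01 in the Erg fl/fl control, with no overlap (log2 difference -0.10, exact permutation p = 0.0667). On the others it was 1.08 and 1.04 in Erg KO libraries, 1.04 and 1.02 in the CreT control and 1.06 and 1.04 in the Erg fl/fl control, where the groups overlapped (0.03, exact permutation p = 0.2). With bin coverage in the expectation the value on the other chromosomes turned to -0.10.

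Farther along the arm, contact with 23 to 33 Mb was 1.05 in Erg KO cells and 1.09 in controls, with 33 to 43 Mb 1.12 in Erg KO cells and 1.15 in controls, and with 43 to 53 Mb 1.12 in Erg KO cells and 1.11 in controls (exact permutation p from 0.2 to 0.667). Both Erg KO libraries lay below all controls for 23 to 33 Mb and for 33 to 43 Mb. On rDNA chromosomes alone these differences were -0.13 and -0.09 with no overlap (exact permutation p = 0.0667 each), and on the others -0.02 and -0.01 with overlap. At the other end of the chromosomes, cis contact at short range was higher. Contacts under 0.5 Mb averaged 0.937 near the centromeres and 1.19 in the last 10 Mb, and were lower near the centromeres in 6 of 6 libraries (mean log2 difference -0.34, exact sign-flip p = 0.03125). From 0.5 to 2 Mb that difference was -0.25, with the next 10 Mb of the arm it was -0.19 and with 23 to 33 Mb it was -0.17, each in 6 of 6 libraries. It was smaller and not of 1 sign in the remaining ranges, at -0.04 from 2 to 10 Mb, where 3 of 6 libraries were higher near the centromeres (exact sign-flip p = 0.25), -0.06 with 33 to 43 Mb and -0.05 with 43 to 53 Mb, where 1 of 6 was (exact sign-flip p = 0.0625 each).

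**Figure D5:**
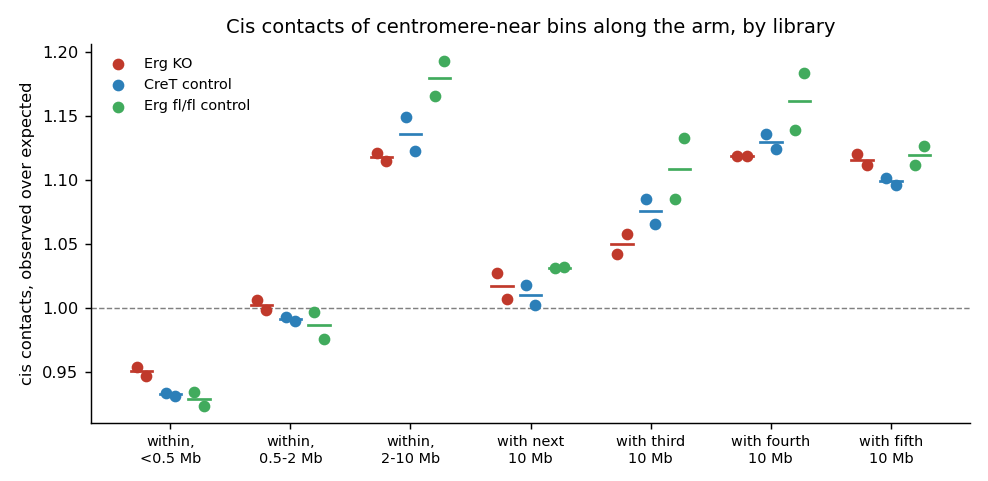
Observed over expected cis contacts (y axis, no unit, dashed line at 1, axis not from 0) of centromere-near bins with each other by distance and with the following 10 Mb parts of the same arm. Points are libraries, over rDNA and other chromosomes together, and short lines group means. All libraries lie under 1 below 0.5 Mb, where rDNA chromosomes alone are above 1, and all lie above 1.1 from 2 to 10 Mb.

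Single cis bin pairs were tested with edgeR as well, with loess offsets over abundance, for 431111 bin pairs well above the background of contacts between chromosomes. In centromere-near parts 30203 bin pairs were tested, 6 of them between chromosomes, of which 1752 rose (5.80%) and 1420 fell (4.70%). Over all bin pairs 6.38% rose and 6.47% fell. Among contacts of a bin with itself 564 of 1782 rose (31.65%, against 33.3% of all such contacts) and 38 fell (2.13%, against 4.45%). Under 0.5 Mb 688 of 6865 rose (10.02%, against 12.65% of all pairs at that distance) and 500 fell (7.28%, against 11.5%). From 0.5 to 2 Mb falling pairs were more frequent, as over all pairs, with 465 of 16653 rising (2.79%, against 2.97%) and 792 falling (4.76%, against 6.07%). From 2 to 10 Mb 35 of 4897 rose (0.715%, against 0.728%) and 90 fell (1.84%, against 1.78%). Shares near the centromeres were thus close to or under those of all bin pairs at each distance. With 1 Erg KO library left out, replicate 1 or 2, edgeR called 0 of these pairs, with 3511 and 4109 at an unadjusted p under 0.05. It called 999 rising and 868 falling without CreT control replicate 1, and 651 rising and 373 falling with the male Erg fl/fl library left out. DESeq2, which gave an adjusted p to 6336 of these pairs, called 26 rising and 86 falling. Shares of all bin pairs under these alternatives are not given.

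Chromosomes differed in direction. On chromosome 19, 397 of 1588 centromere-near cis pairs fell (25%) and 8 rose, with a median log2 fold change of -0.36, while in the rest of that chromosome 3.45% fell and 5.01% rose. Chromosome 16 had 156 falling (8.16%) and 27 rising (1.41%) of 1912, against 5.53% falling and 9.95% rising in its rest. On chromosome 3, 221 of 1296 rose (17.05%) and 28 fell (2.16%), against 6.43% rising and 3.60% falling in its rest. On chromosome 6, 257 of 1642 rose (15.65%) and 8 fell (0.487%), against 8.18% rising and 4.32% falling in its rest. Over the 5 rDNA chromosomes 239 of 8696 rose and 738 fell, and over the other 14 chromosomes 1513 of 21501 rose and 682 fell. The difference between these classes was not tested, and the share of open-side bins differs between them.

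Local contacts of a bin, summed over partners from 200 kb to 2 Mb on the same chromosome and scaled by TMM, were tested per bin. Of 1783 centromere-near bins 564 rose and 484 fell in edgeR, where 34.3% of all bins rose and 33.2% fell. Direction differed between compartments: 491 of 1095 bins on the closed side rose and 118 fell, whereas 73 of 688 on the open side rose and 366 fell. The same split held elsewhere, with 6912 of 11937 other closed-side bins rising and 6179 of 9924 other open-side bins falling. On chromosome 19, 79 of 97 centromere-near bins fell and 0 rose, at a median of -0.39 on the log2 scale, and on chromosome 6, 86 of 97 rose and 0 fell. These directions are relative to all local contacts. With each bin's total contacts as offset, 0 centromere-near bins rose and 1563 fell. The median of all bins was -0.41, so on that scale the fall was not particular to centromere-near bins.

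Of the 22 listed genes, 13 had a bin that lost local contacts (59.1%) and 4 a bin that gained them (18.2%), where 33.2% of all bins lost and 34.3% gained them. Of these genes, 19 lie on the open side, where 12 lost local contacts (63.2%), beside 53.2% of all open-side centromere-near bins. The bin of Polm had 53.2 and 55.7 per 1000000 local contacts in Erg KO libraries, 69.0 and 68.7 in the CreT control and 64.9 and 80.3 in the Erg fl/fl control (log2 fold change -0.48 ± 0.06, SE, edgeR adjusted p = 2.04e-06). The bin of Socs1, an inhibitor of cytokine signalling, had 47.2 and 52.5 in Erg KO libraries, 64.8 and 60.7 in the CreT control and 56.7 and 62.7 in the Erg fl/fl control (log2 fold change -0.39, edgeR adjusted p = 1.36e-05). Both bins were lower in each Erg KO library than in any control. Insr (-0.36), Mycn, a MYC family gene of progenitors (-0.33), and the bin that Dclre1c, the hairpin-opening nuclease Artemis, shares with Suv39h2, a histone H3 lysine 9 methyltransferase of pericentric chromatin (-0.30), fell too. For Mycn the value was -0.14 with Erg KO replicate 1 left out and -0.45 if instead replicate 2 was.

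Ghr, the growth hormone receptor gene, had 36.5 and 30.9 in Erg KO libraries, 27.4 and 26.8 in the CreT control and 30.6 and 25.9 in the Erg fl/fl control (log2 fold change 0.29, edgeR adjusted p = 0.00214). Gata3, a factor of the T lineage, had 61.9 and 64.1 in Erg KO libraries, 53.3 and 56.6 in the CreT control and 53.3 and 47.2 in the Erg fl/fl control (0.22, adjusted p = 0.0037). Ikzf1 (0.23, adjusted p = 0.0326) and the stromal collagen gene Col1a2 (0.22, adjusted p = 0.00414) were the others, and for Ikzf1 the ranges of the groups overlapped. Without Erg KO replicate 1 the values of Gata3 and Col1a2 were 0.33 and 0.35, and without Erg KO replicate 2 both were 0.15. Of the 21 stromal genes, 2 start in centromere-near bins, Col1a2 and Itga8, and no level of stromal RNA can be read from these data.

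Seen by the ends of read pairs, centromere-near bins had more of their contacts in trans than the rest of the autosomes, as had the last 10 Mb of the chromosomes. The share was 37.6% ± 1.53 in Erg KO cells (SD, n = 2) and 28.4% ± 2.36 in controls (n = 4, exact permutation p = 0.0667), in the last 10 Mb it was 37.5% in Erg KO cells and 28.04% in controls, and in all other autosomal bins it was 32.9% in Erg KO cells and 24.0% in controls. The centromere-near share exceeded that of the other bins by 4.48 percentage points on average, in 6 of 6 libraries (exact sign-flip p = 0.03125), with 4.61 points in Erg KO cells and 4.41 in controls. For cis contacts beyond 10 Mb this difference was -2.86 points and for those under 2 Mb -0.442 points, with the same sign in 6 of 6 libraries. On rDNA chromosomes the trans share of centromere-near bins was 41.1% in Erg KO cells and 30.5% in controls, and on the other chromosomes 36.0% in Erg KO cells and 27.4% in controls. The remaining bins of rDNA chromosomes also had a higher trans share, 36.5% in Erg KO cells and 27.0% in controls, than those of the other chromosomes, with 32.1% in Erg KO cells and 23.3% in controls. The rDNA chromosomes are 61.4 to 120 Mb long and the others 95 to 195 Mb, and the part of length in these shares was not tested.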

How the data were processed

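In situ Hi-C was made from 6 libraries of cultured B-cell progenitors, 2 per genotype class. The authors aligned reads to mm10 with diffHic and bowtie2 after splitting chimeric reads with cutadapt, marked duplicates with Picard, removed dangling ends and long fragments, and counted read pairs between bins of about 100 kb without pooling libraries. The deposited counts are these raw read pairs per pair of bins, and the deposited list of bins, whose other columns are coordinates, gives chromosome, start and end. GRCm38 sequence and annotation gave GC content, repeats, gene starts and the printed sequences.

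The members and gene lists were chosen with earlier results of these data known. Bins with 0.3 to 3 times the median autosomal contacts were kept. Expected trans counts were products of bin weights fitted in each library. Observed over expected was compared by two-sided exact permutation (15 ways to choose 2 of 6 libraries) or by exact sign flips over 64 arrangements. Block pairs, bins and cis bin pairs were tested with edgeR 4.0.16 (quasi-likelihood, group and sex, Benjamini-Hochberg adjustment over all features, threshold 0.05) in R 4.3.3, with limma 3.58.1 loess offsets for cis bin pairs, which needed 10 read pairs in all and 5 times the trans background. DESeq2 1.42.0 was an alternative. The remaining steps ran in Python 3.11.15 (scipy 1.17.1, numpy 2.4.6, pandas 2.3.3), and each model was tested on simulated counts. The text names the 10 rDNA block pairs, the 5 block pairs and 10 bins with the largest change in each direction that passed with the same sign against each control, and the listed genes that start in these bins. The paper describes the libraries as biological duplicates. Replicates of Erg KO and of Erg fl/fl differ in sex, so they came from different mice. The labels do not state whether the 2 female CreT control libraries came from separate mice or cultures. The p-values compare libraries, with 2 per genotype. Counts of replicates differed by more than counting noise (chi-square per block pair 1.36 for Erg KO, 1.06 for CreT and 1.46 for Erg fl/fl). The depth was 29014581 to 68085468 read pairs per library, which limits the precision of single bin pairs most.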

Additional observations from a re-analysis of the deposited data

Results flagged for a closer look

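Among 32 measures of trans contact near the centromeres, 5 had 1 of the 4 control libraries far from the other controls by Dixon's criterion, which chance meets in about 1 in 20 groups. It was Erg fl/fl control replicate 2 each time, the library with the fewest read pairs and the lowest trans share, and the measures share their read pairs. Mixed pairs of an rDNA chromosome with another had 1.58 in it and 1.41 to 1.44 in the other controls. The centromere-near bins of chromosome 8 had 1.74 (1.54 to 1.55 in the other controls), those of chromosome 5 had 1.81 (1.61 to 1.64), those of chromosome 7 had 1.845 (1.62 to 1.655) and those of chromosome 11 had 1.85 (1.61 to 1.645). The Erg KO libraries lay below the other controls in each of the 5.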

How the results depend on the processing

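Of 436 values under other settings, over 34 results, 368 kept their direction and side of the threshold. For differences tested by exact permutation that side was fixed in advance, since p cannot go under 0.0667. There only the direction could change. On counts per 1000000 autosomal read pairs the log2 difference of Erg KO cells to controls was 0.18 for all centromere-near pairs, 0.24 for rDNA, 0.19 for mixed and 0.17 for other pairs, and the mean log2 ratio of rDNA to other pairs was 0.51. On read pairs beyond expectation per 1000000 cis read pairs, an alternative added after seeing the data, rDNA pairs had 0.12 and the ratio 0.028. The ratio was 0.0463 with expected counts from total contacts, -0.074 without chromosome 19, and 0.0045 without chromosome 19 and with compartment deciles, the last also added after seeing the data. Bin coverage in the expectation of cis contacts turned the difference with 43 to 53 Mb to -0.0488. On rDNA chromosomes it turned it to 0.0995 under 0.5 Mb, 0.0339 from 0.5 to 2 Mb and 0.0272 from 2 to 10 Mb, and on the others to -0.0117 from 0.5 to 2 Mb and -0.0978 with 13 to 23 Mb. For the ratio of the classes it gave 0.0862, 0.0456 and 0.169 at the 3 distances and 0.0247 with 13 to 23 Mb. Cis values without chromosome 19 were added after seeing the data. The cause was not tested.

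Among the 171 block pairs, loess offsets over abundance left 57 falling and 3 rising, DESeq2 52 falling of 166 with an adjusted p, and the first 5 Mb as block 102 falling and 1 rising. Among the 1783 bins, TMM gave 1 rising, loess 13 falling and 2 rising, and DESeq2 1 falling. For local contacts, coverage offsets gave 0 rising and 1563 falling, with the median of all bins negative as well. Group alone gave 321 rising and 311 falling. For cis bin pairs, group alone gave 732 rising and 670 falling, DESeq2 26 and 86, and a minimum of 20 read pairs with no abundance filter 1140 rising. Shares of all features called under these settings are not given here.

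Replicate numbers did not pair the libraries: deviations of replicate 1 correlated at -0.03, 0.04 and -0.04 between groups. With a replicate block in place of sex, 149 block pairs and 487 bins fell, 371 bins rose in local contacts, and 752 cis bin pairs rose and 702 fell.

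Leaving out 1 library at a time, the mean log2 excess was 0.53 to 0.60 and the mean log2 ratio -0.26 to -0.22, where 5 libraries allow no p under 0.0625. Cis contact with 13 to 23 Mb was -0.0187 to 0.00884, at 0.00884 without Erg KO replicate 2 and 0.00029 if the male Erg fl/fl library was left out. Falling bins numbered 44 to 511, falling block pairs 121 to 158, and cis bin pairs 0 to 1742 rising and 0 to 1612 falling. Cis bin pairs were 999 rising and 868 falling without CreT control replicate 1, and 651 and 373 if the male Erg fl/fl library was left out. When either male library is left out in edgeR, the sex term is set by the remaining male library alone. The group difference then rests on the female libraries, so leaving out one male library or the other is not a separate check.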
